A study of Homo sapiens with 15 samples.

Results

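The comparison described here is that of A549 cells kept for 24 h in culture without added cytokine with the same cells at 0 h. Its members are the 6 arrays, of the 15 in the study, whose sample titles name the untreated control at 0 h (arrays a, b and c) or at 24 h (arrays a, b and c), and it covers every gene on the array. A549 is given in the labels as a bronchial line and is known as an established epithelial line from a lung adenocarcinoma. All 15 arrays measured total RNA on the Affymetrix hgu133a array, and the other 9 come from cells given the cytokine IL-13 for 4 h, 12 h or 24 h, 3 arrays each. The control at 0 h was harvested untreated and the control at 24 h was harvested 24 h later. No other agent or genetic change is named for either group. The labels do not give the medium, serum, cell density or any change of medium during the 24 h. The question is which genes move with time in culture alone, since such genes set the baseline against which a response to IL-13 at 24 h is read.

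Cells left in a dish can go on growing, condition their medium and form more contacts with one another, but none of this was measured here. The programmes that follow are background to genes named below, and their link to such changes was not tested. The coactivators YAP and TAZ act with TEAD factors on genes such as CCN1 and AXL when cells are spread and under tension, and the SRF cofactor MRTF does so for genes of the actin cytoskeleton. Cytosolic phospholipase A2 (PLA2G4A) frees arachidonic acid from membranes and cyclooxygenase 2 (PTGS2) turns it into prostaglandin H2. Epithelial cells of the lung can also make proteins better known from liver and plasma, the fibrinogen chains among them. NRF2 drives genes of glutathione synthesis and detoxification, and A549 cells are known for high NRF2 activity because their KEAP1 gene is mutated.

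The median deposited signal was 57.1 to 60.6 on the 0 h arrays and 66.3 to 72.5 on the 24 h arrays, while the trimmed mean of each array was fixed at 150. The highest array median among the 9 IL-13 arrays was 65.9, so the 3 untreated 24 h arrays had the highest medians of the study. The medians of the 2 control groups did not overlap (exact permutation test, two-sided, p = 0.1, the smallest that 3 against 3 arrays can give). The ratio of the 3' to the 5' control probe set of beta-actin was 1.001 ± 0.065 at 0 h and 1.17 ± 0.066 at 24 h (SD, n = 3; exact permutation test, p = 0.1). That of GAPDH was 0.881 ± 0.023 and 0.896 ± 0.021 (SD, n = 3; exact permutation test, p = 0.4). The part of these shifts in the results below was not tested. Arrays of a group correlated at 0.970 to 0.982 and arrays of different groups at 0.959 to 0.971. Of the 12 A549 and epithelial marker genes, keratins and aldo-keto reductases among them, 10 were over the expression filter, and their summed signal was 41038 to 43477 at 0 h and 42280 to 44679 at 24 h. Of markers of other cells, 1 of 7 for alveolar type 2 cells (SFTPC), 0 of 5 for differentiated airway cells, 3 of 10 for leukocytes, 2 of 9 for fibroblasts and 1 of 7 for endothelium were over the filter, and 0 of these 7 were called. The summed signal of the leukocyte list was 355 to 430 at 0 h and 452 to 633 at 24 h, and that of the fibroblast list 379 to 399 and 416 to 438. These are sums of deposited signals, and the array medians were higher at 24 h too. After normalization the markers of both lists differed in sign. Log2 differences ran from -0.40 ± 0.35 (CD3D) to 0.42 ± 0.18 (MS4A1) and from -0.43 ± 0.33 (COL3A1) to 0.54 ± 0.28 (PDGFRA; SE). The part of these cells in the results was not tested. In RNA from a whole culture, fewer cells of a kind and less RNA per cell cannot be told apart.

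Of 6884 genes tested, 119 rose and 130 fell between 0 h and 24 h (limma over all 15 arrays, Benjamini-Hochberg adjusted p under 0.05), which is 1.73% and 1.89% of the genes tested and 3.62% together. The changes were modest. The median size of a called rise was 0.56 and the median called fall was -0.58 on the log2(signal + 20) scale on which all differences are given here, and 3 genes rose and 7 fell by at least 2-fold. At 1.5-fold or more there were 52 rises and 64 falls. The median difference of all tested genes was -0.0030. The 6 arrays of the 2 groups did not overlap for any called gene, as also held for 12.2% of all tested genes in the upward and 12.6% in the downward direction. Scaling each array on its median in place of quantile normalization moved the median gene to -0.15 and gave 51 rises against 826 falls, and the same on tested genes alone gave 108 against 270, so the balance of rises and falls depends on the scaling. Array c of the 24 h group and array b of the 0 h group weigh most on the count: 66 genes were called without the former and 73 without the latter. With every probe set as its own test, 479 of 11107 (4.31%) were called, 221 higher and 258 lower. The labels do not say that the arrays came from separate cultures, so each p-value reflects spread from array to array alone, and that spread may be technical.

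**Figure D1:**
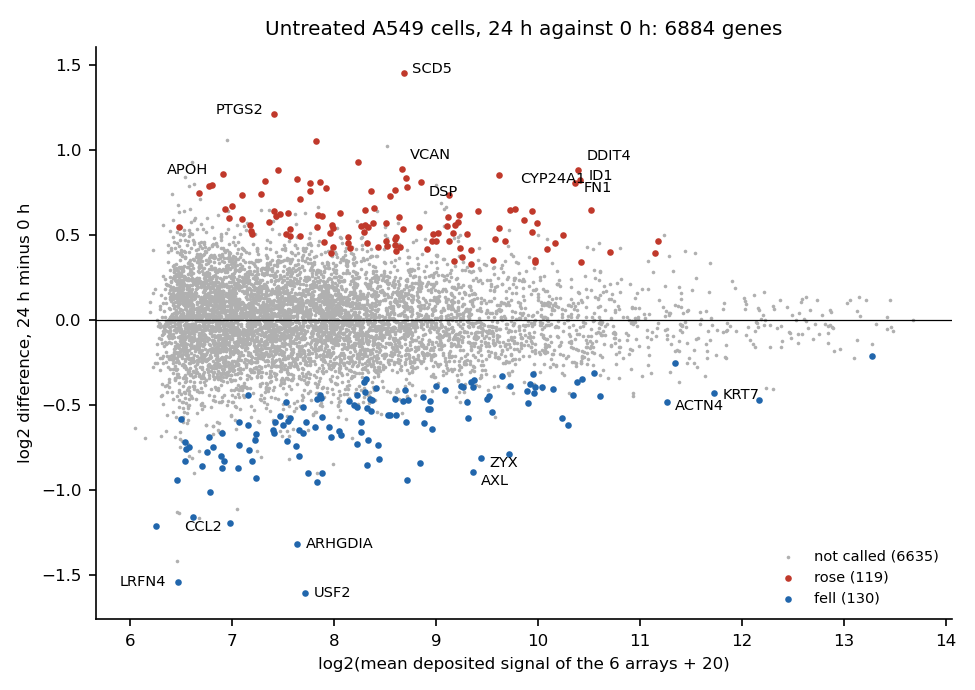
Each point is 1 of 6884 genes, with its mean deposited signal over the 6 arrays on a log2 scale on the horizontal axis and its difference between untreated cells at 24 h and 0 h on the vertical axis. Red points are the 119 genes that rose and blue points the 130 that fell; both lie across the whole range of signal, and few pass a log2 difference of 1 in size.

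The enzymes that make prostaglandin H2 from membrane lipid were among the clearest rises. PTGS2 had signals of 102, 64.7 and 73.3 at 0 h and 219, 214 and 226 at 24 h. Every 24 h array was above every 0 h array by a wide margin, and the rise was 1.21 ± 0.17 (SE; adjusted p = 0.00080). PLA2G4A, which supplies its substrate, had 125, 114 and 121 at 0 h and 215, 266 and 231 at 24 h. This was a rise of 0.83 ± 0.14 (adjusted p = 0.0029) with little spread at 0 h. In the other direction, ALOX5AP, the protein that presents arachidonic acid to 5-lipoxygenase, fell by 0.60 ± 0.14, with 158, 124 and 125 at 0 h and 112, 88.4 and 75.9 at 24 h. The rises of PTGS2 and PLA2G4A kept their calls in the 18 alternatives in which they were tested (both are too dim for the filter at the 75th percentile), and ALOX5AP lost its call without any 1 of the 0 h arrays or 24 h array c (adjusted p up to 0.12). PTGS1, the constitutive cyclooxygenase, had a difference of 0.028 ± 0.18, and its arrays overlapped. Prostaglandin E synthase 2 (PTGES2) had -0.43 ± 0.15 (adjusted p = 0.12) and HPGD, which inactivates prostaglandins, 0.24 ± 0.11 (adjusted p = 0.24). Of the 13 tested genes of the prostaglandin and leukotriene list, 2 rose and 1 fell, against 1.73% and 1.89% of all tested genes, and the list's median was 0.12 (-0.0074 under median scaling). With IL-13 for 24 h, PTGS2 stood lower than in the untreated cells of the same time, at a mean of 132 against 219.9, and PLA2G4A at 208 against 237. For PTGS2 that difference passed the test (-0.61 ± 0.17, adjusted p = 0.038; 7% of tested genes did so in that comparison) and for PLA2G4A it did not (-0.15 ± 0.14, adjusted p = 0.54). This comparison shares the 24 h control arrays with the one described here. Both genes were named for being high in those arrays, so its p-values are not independent of that choice.

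Of 14 tested genes of retinoid and vitamin D handling 5 rose and 0 fell, against 1.73% and 1.89% of all tested genes, with 12 of the 14 above zero and a median of 0.29. CYP24A1, the hydroxylase that inactivates vitamin D, had 505, 574 and 628 at 0 h and 1013, 953 and 926 at 24 h. RARRES1, first described as a retinoid-responsive gene, had 109, 80.7 and 109 at 0 h and 215, 218 and 197 at 24 h. These 2 rose by 0.86 ± 0.12 (adjusted p = 0.00071) and 0.89 ± 0.16 (adjusted p = 0.0056), with each 24 h array above each 0 h array, and CYP24A1 kept its call in every alternative, RARRES1 in all but the filter at the 75th percentile, which leaves it out. DHRS3, which reduces retinal to retinol, rose by 0.84 ± 0.17, with 244, 277 and 323 at 0 h and 433, 397 and 707 at 24 h. Here array c of the 24 h group stood far above its group, and DHRS3 lost its call without 0 h array a or b or 24 h array c (adjusted p up to 0.060). The corepressor NRIP1 rose by 0.57 ± 0.13 and lost its call without 0 h array a or b or 24 h array b or c (adjusted p up to 0.098). The retinol dehydrogenase RDH11 rose by 0.49 ± 0.12 on 1 of its 3 bright probe sets and lost its call whichever 1 array was left out (adjusted p up to 0.11). Its other bright probe sets had differences of 0.093 ± 0.15 and -0.048 ± 0.14 (SE), and it was not called on the mean of its probe sets (0.18, adjusted p = 0.29). STRA6, the retinol-binding protein receptor, and RARB, a retinoic acid receptor that is itself induced by retinoic acid, had 0.35 ± 0.12 and 0.38 ± 0.15 and did not pass the test (adjusted p = 0.12 and 0.16). Under median scaling the list's median was 0.16 and 3 of its genes rose.

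Genes of the actin cytoskeleton and of YAP made up the group with most falls: 8 of 30 tested fell and 0 rose, 4 of the 30 were above zero, and the median was -0.20, against 1.89% of all tested genes that fell. Among the YAP targets, CCN1, a secreted matricellular protein, had 559, 510.2 and 523 at 0 h and 337, 232 and 234 at 24 h. AXL, a receptor tyrosine kinase, had 885, 836 and 818 at 0 h and 421, 390.03 and 469 at 24 h. Their levels at 24 h were below every 0 h array, with differences of -0.94 ± 0.17 (adjusted p = 0.0061) and -0.90 ± 0.14 (adjusted p = 0.0021). CCN2, the other classic target, had 249, 335 and 175 at 0 h and 148, 248 and 157 at 24 h. The 2 groups overlapped for CCN2, and its difference of -0.45 ± 0.19 did not pass the test (adjusted p = 0.20). None of the coactivators and partners was called: YAP1 had 0.11 ± 0.12, TAZ (WWTR1) 0.27 ± 0.11, TEAD1 0.12 ± 0.14 and TEAD4 -0.20 ± 0.11.

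Zyxin (ZYX), a focal adhesion protein, had 797, 929 and 917 at 0 h and 484, 439 and 488 at 24 h, a difference of -0.81 ± 0.14 (adjusted p = 0.0030). Alpha-actinin 4 (ACTN4), an actin crosslinker, had 2843, 2779 and 3222 at 0 h and 2122, 1675 and 2010.2 at 24 h. ACTN4 fell by 0.48 ± 0.11, with no overlap between the groups. Transgelin (TAGLN) had 406, 428 and 302 at 0 h and 219, 270.4 and 187 at 24 h. TAGLN fell by 0.71 ± 0.16. Smaller falls were those of the myosin heavy chain MYH9 (-0.60 ± 0.16), of talin (TLN1, -0.58 ± 0.16), which links integrins to actin, and of moesin (MSN, -0.41 ± 0.11), which links actin to the membrane. The tropomyosins TPM4 (-0.57 ± 0.18, adjusted p = 0.078) and TPM2 (-0.39 ± 0.13, adjusted p = 0.092) were lower at 24 h without passing the test. Actin itself and some of its partners were not called: ACTB had -0.065 ± 0.069 (adjusted p = 0.65; 0.0065 with the deposited scaling), profilin (PFN1) -0.0014 ± 0.084, cofilin (CFL1) -0.042 ± 0.10 and alpha-actinin 1 (ACTN1) -0.023 ± 0.13. Without 1 array the list held 3 to 8 falls, fewest without array c of the 24 h group, where ZYX, AXL and CCN1 kept their calls as they did under every alternative. ACTN4 lost its call without 0 h array c or 24 h array b or c (adjusted p up to 0.079), TAGLN lost its call without 0 h array a or b or 24 h array a or c (adjusted p up to 0.10), MYH9 lost its call without any 1 of the 0 h arrays or 24 h array b or c (adjusted p up to 0.16), TLN1 lost its call without any 1 of the 0 h arrays or 24 h array b or c (adjusted p up to 0.19) and MSN lost its call without 0 h array b or c or 24 h array b or c (adjusted p up to 0.20). Under median scaling 19 of the 30 fell and the median was -0.45.

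Outside the list, further genes stood among the 25 largest falls. ARHGDIA had 266, 211 and 299 at 0 h and 133, 90.5 and 78.2 at 24 h, a difference of -1.32 ± 0.18 (adjusted p = 0.00071), and its 3 other bright probe sets were lower too. PDLIM2, a PDZ and LIM domain protein bound to actin fibres, had 269, 258 and 239 at 0 h and 123, 121 and 154 at 24 h, a difference of -0.90 ± 0.16. EFHD2, a calcium-binding protein that associates with actin, had 543, 589.6 and 583 at 0 h and 299, 301 and 312 at 24 h. It fell by 0.84 ± 0.11 (adjusted p = 0.00051), and the arrays of each group lay close together. PDLIM2 and EFHD2 kept their calls in every alternative, and ARHGDIA did so in all but the filter at the 75th percentile, which leaves it out. PARVA, a focal adhesion protein that binds integrin-linked kinase, fell by 0.83 ± 0.17, but 0 of its 2 other bright probe sets were lower, and with the mean of its probe sets it was not called (adjusted p = 0.80). The GTPases HRAS (-0.82 ± 0.12) and RRAS (-0.90 ± 0.20) fell as well. RRAS lost its call without 0 h array a or 24 h array a or c (adjusted p up to 0.083), while HRAS kept its call in every alternative.

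These falls can be followed through the IL-13 groups, in which cells spent 4 h, 12 h and 24 h in culture with the cytokine. The mean signal of ZYX was 881 at 0 h, 854, 573 and 416 after 4 h, 12 h and 24 h with IL-13, and 470.1 in the 24 h control. ACTN4 stood at 2948 at 0 h, 3238, 2364 and 1758 after 4 h, 12 h and 24 h with IL-13, and 1936 in the 24 h control. For ARHGDIA the means were 259 at 0 h, 246, 108 and 66.3 after 4 h, 12 h and 24 h with IL-13, and 100.4 in the 24 h control. In these 3 genes the IL-13 mean at 24 h lay below that of the untreated 24 h cells, and the difference between those groups was not called (adjusted p = 0.29, 0.19 and 0.31), with differences of -0.24 ± 0.14, -0.23 ± 0.11 and -0.31 ± 0.18. CCN1 took another course: 531 at 0 h, 249.97, 180.3 and 347 after 4 h, 12 h and 24 h with IL-13, and 268 in the 24 h control. It was already low at 4 h. Since the study has no array labelled as an untreated control of 4 h or 12 h, culture and cytokine cannot be told apart there.

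**Figure D2:**
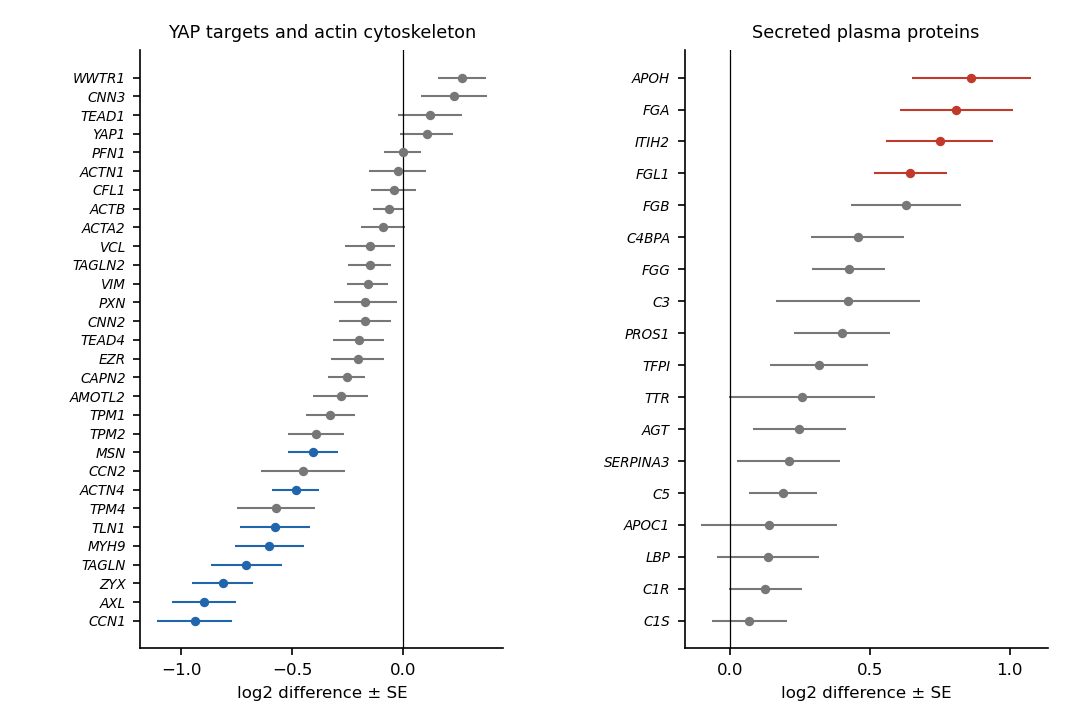
Each point is the log2 difference between untreated cells at 24 h and 0 h of 1 gene with its SE (limma, 3 arrays per group), for the 30 tested genes of YAP and actin on the left and the 18 tested plasma protein genes on the right. Blue genes fell, red genes rose and grey genes did not pass the test; most of the left panel lies below zero and all 18 genes of the right panel lie above it.

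Secreted plasma proteins were higher at 24 h. All 18 tested genes of this list were above zero, 4 rose and 0 fell, and the median was 0.36 (0.26 under median scaling and 0.44 with the deposited scaling), against 1.73% of all tested genes that rose. The fibrinogen alpha chain FGA had 151, 129.7 and 120.2 at 0 h and 175, 294 and 313 at 24 h. FGL1, a fibrinogen-like protein of liver, had 110.2, 100.1 and 116 at 0 h and 203, 171 and 198 at 24 h. The 24 h arrays were above the 0 h arrays in each case, by 0.81 ± 0.20 and 0.64 ± 0.13. Beta-2-glycoprotein 1 (APOH) had 83.8, 78.6 and 28.6 at 0 h and 123, 133 and 154 at 24 h, with array c low at 0 h, and the inter-alpha-trypsin inhibitor chain ITIH2 had 41.1, 52.1 and 60.4 at 0 h and 100.3, 88.2 and 150.2 at 24 h. They rose by 0.86 ± 0.21 and 0.75 ± 0.19. The other fibrinogen chains had 0.63 ± 0.20 (FGB, adjusted p = 0.084) and 0.42 ± 0.13 (FGG, adjusted p = 0.078), and all 3 FGG arrays at 24 h, 213, 219 and 224, were above those at 0 h, 147, 159.97 and 157. Complement C3 (0.42 ± 0.26) and the complement regulator C4BPA (0.46 ± 0.17) did not pass the test. The 4 calls are fragile: without 1 array 0 to 2 genes were called, 0 without array c of the 24 h group, where the median was 0.43. FGA lost its call without any 1 of the 0 h arrays or 24 h array b or c (adjusted p up to 0.15), FGL1 lost its call without 0 h array b or 24 h array c (adjusted p up to 0.060), APOH lost its call without 0 h array c or any 1 of the 24 h arrays (adjusted p up to 0.12) and ITIH2 lost its call without any 1 of the 0 h arrays or 24 h array a or c (adjusted p up to 0.16). In the model of the 2 control groups alone 1 gene, FGL1, rose. With no filter FGA, APOH and ITIH2 lost their calls and FGL1 kept its call. With IL-13 at 24 h the mean signal of FGA was 347 and that of FGL1 143, against 261 and 191 without it, and neither difference was called (adjusted p = 0.23 and 0.14).

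The promoters of FGA and APOH are shown because both genes are among the list's rises and because HNF1 factors, which act on many such genes, bind a core that can be read by eye. RefSeq's promoter table (GRCh38.p14) holds 12 of the 18 tested genes of the list and 2 of the 4 that rose. The 250 bases before the start are printed 5′ to 3′ on the gene's strand, with matches to the core GTTAAT on either strand in capitals.
FGA, chr4:154590743-154590992, minus strand: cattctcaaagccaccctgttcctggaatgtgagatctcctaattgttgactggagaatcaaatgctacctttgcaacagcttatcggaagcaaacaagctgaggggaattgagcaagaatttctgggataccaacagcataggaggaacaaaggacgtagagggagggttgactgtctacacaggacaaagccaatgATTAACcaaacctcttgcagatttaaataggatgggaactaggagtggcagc
APOH, chr17:66229416-66229665, minus strand: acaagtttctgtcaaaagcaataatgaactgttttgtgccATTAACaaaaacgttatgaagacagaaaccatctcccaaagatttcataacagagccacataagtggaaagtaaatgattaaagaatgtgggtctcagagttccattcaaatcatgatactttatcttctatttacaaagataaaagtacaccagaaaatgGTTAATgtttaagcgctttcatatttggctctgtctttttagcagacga
The match begins 52 bases before the start in FGA, and the 2 matches in APOH begin 210 and 49 bases before it. The core was present in 4 of the 12 promoters of the list (33.3%), in 3.46% of the promoters of all tested genes and in 6.22% of all 27303 promoters of the table. A match is a string of letters and shows no binding.

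In the matrix list 4 of 42 tested genes rose and 1 fell, against 1.73% and 1.89% of all tested genes, with a median of 0.047 (-0.078 under median scaling). Fibronectin (FN1) had 843, 1087 and 1108 at 0 h and 1568, 1602 and 1575 at 24 h, a rise of 0.81 ± 0.14 (adjusted p = 0.0053), and all 4 of its other bright probe sets were higher. The proteoglycan versican (VCAN) had 341, 248 and 234 at 0 h and 519, 466 and 509 at 24 h. Both groups were well apart in both genes, the rise of VCAN was 0.89 ± 0.13 (adjusted p = 0.0011), and both calls held in every alternative. COL5A2 (0.42 ± 0.083) and COL4A5 (0.53 ± 0.13), chains of fibrillar and basement membrane collagen, rose by less. COL4A5 lost its call without any 1 of the 0 h arrays or 24 h array b or c (adjusted p up to 0.11), and neither was called under median scaling. COL5A2 was called under none of the 3 other scalings. Over all alternatives its difference was as low as 0.097 and its adjusted p as high as 0.60. EFEMP1, a fibulin, fell by 0.65 ± 0.17 and lost its call without any 1 of the 0 h arrays or 24 h array b or c (adjusted p up to 0.15), and it was not called on the mean of its probe sets. COL4A1, the main basement membrane chain, had -0.42 ± 0.14 (adjusted p = 0.095). Its other bright probe set had -1.28 ± 0.28 (SE). COL4A1 was called as a fall on the mean of its probe sets and under median and tested-gene median scaling. The mean signal of VCAN was 274 at 0 h, 208, 166 and 226 after 4 h, 12 h and 24 h with IL-13, and 498 in the 24 h control, and that of FN1 was 1013 at 0 h, 1002, 898 and 1117 after 4 h, 12 h and 24 h with IL-13, and 1582 in the 24 h control. Against the 24 h control both were lower after 24 h of IL-13 (-1.12 ± 0.13, adjusted p = 5.6e-05, and -0.66 ± 0.14, adjusted p = 0.010), and their means with IL-13 lay near those of untreated cells at 0 h. VCAN and FN1 were named for being high in the same 24 h control arrays, so these p-values are not independent of that choice.

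Cell junction and epithelial genes changed in both directions. Desmoplakin (DSP), which anchors keratin filaments at desmosomes, had 323, 323 and 323 at 0 h and 546, 549.6 and 582 at 24 h, a rise of 0.82 ± 0.11 (adjusted p = 0.00071). The 0 h arrays agreed within 1 unit of signal, and DSP kept its call in every alternative. The mean of DSP was 323 at 0 h, 410.2, 473 and 645 after 4 h, 12 h and 24 h with IL-13, and 559 in the 24 h control. ELF3, an epithelial transcription factor, rose by 0.51 ± 0.11 and lost its call without 0 h array b or 24 h array c (adjusted p up to 0.089). Keratin 7 (KRT7), a simple epithelial keratin, had 4074, 4095 and 3858 at 0 h and 2829.9, 2765 and 2654 at 24 h and fell by 0.43 ± 0.081 (adjusted p = 0.0082). The fall of KRT7 was not called on the mean of its probe sets (adjusted p = 0.64). E-cadherin (CDH1) had 0.53 ± 0.20 (adjusted p = 0.15) and vimentin (VIM) -0.16 ± 0.092 (adjusted p = 0.36). Of 26 tested genes of the epithelial and mesenchymal list 2 rose and 2, AXL and KRT7, fell, against 1.73% and 1.89% of all tested genes.

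**Figure D3:**
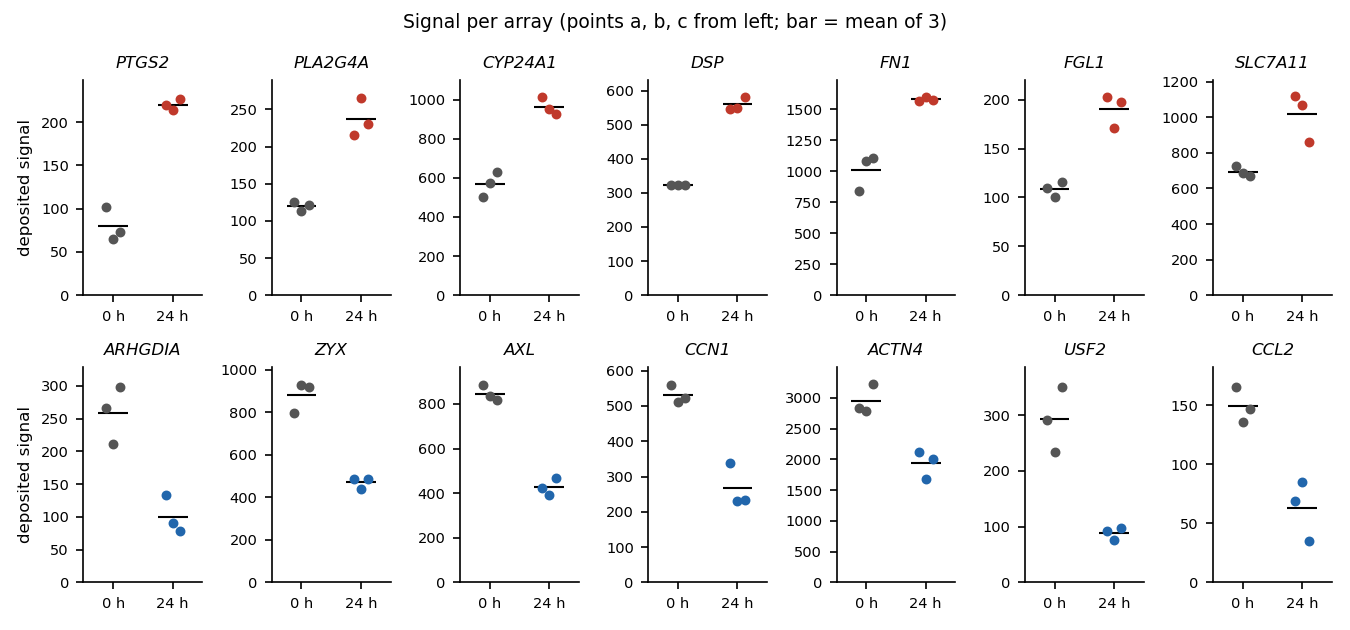
Deposited signal of 14 genes on each untreated array, with grey points for the 3 arrays at 0 h and coloured points for the 3 at 24 h, in the order a, b, c from left to right, and a bar at each mean. The axes start at 0; the upper row holds genes that rose and the lower row genes that fell, and in all 14 the 2 groups do not overlap.

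Genes under NRF2 or of xenobiotic metabolism rose in 6 cases of 40 tested, with 0 falls, against 1.73% and 1.89% of all tested genes, and a median of 0.11 (-0.13 under median scaling). The cystine importer SLC7A11, which feeds glutathione synthesis, had 726, 686 and 671 at 0 h and 1119, 1071 and 862 at 24 h. NFE2L2, the gene of NRF2 itself, had 481, 512 and 561 at 0 h and 742, 733 and 639 at 24 h. They rose by 0.66 ± 0.12 and 0.51 ± 0.10, and every 24 h array was above the 0 h arrays. The glutathione conjugate exporter ABCC1 rose by 0.54 ± 0.10 and the glutathione peroxidase GPX2 by 0.47 ± 0.10. AKR1C1, an aldo-keto reductase, rose by 0.74 ± 0.16 and CYP1B1, a cytochrome P450 under the aryl hydrocarbon receptor, by 0.60 ± 0.13. Other bright probe sets rose by less: 0.14 ± 0.084 and 0.11 ± 0.13 (SE) for AKR1C1, 0.12 ± 0.14 and 0.21 ± 0.19 for CYP1B1, and 0.17 ± 0.097 for ABCC1. AKR1C1 and ABCC1 were still called on the mean of their probe sets. NQO1, the most used NRF2 reporter gene, had -0.10 ± 0.083 and did not pass the test (adjusted p = 0.52), while ABCC3 had 0.53 ± 0.17 (adjusted p = 0.10). The other bright probe sets of NQO1 differed in sign, with -0.065 ± 0.076 and 0.27 ± 0.12 (SE). SLC7A11, NFE2L2 and ABCC1 were called without any 1 array, but not under median scaling, where 1 gene of the list (CYP1B1) rose and 6 fell. GPX2 lost its call without 0 h array b or 24 h array c (adjusted p up to 0.083), AKR1C1 lost its call without 0 h array b or c or 24 h array a or c (adjusted p up to 0.065) and CYP1B1 lost its call without 0 h array a or b or 24 h array c (adjusted p up to 0.084). SLC7A11, NFE2L2 and ABCC1 had means of 1001, 772 and 676 after 24 h with IL-13 against 1017, 705 and 881 without it.

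The promoter of GPX2 is printed as the one of the 3 called genes of this list with a table entry that held the antioxidant response core TGACNNNGC, in capitals as before.
GPX2, chr14:64942746-64942995, minus strand: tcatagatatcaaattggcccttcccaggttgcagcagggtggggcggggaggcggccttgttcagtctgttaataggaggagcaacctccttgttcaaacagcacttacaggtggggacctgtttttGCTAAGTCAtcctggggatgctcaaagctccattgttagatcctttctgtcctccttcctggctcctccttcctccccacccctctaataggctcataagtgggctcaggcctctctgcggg
The match begins 122 bases before the start. The core was found in 8 of the 30 promoters of tested genes of the list (26.7%) and in 12.8% of those of all tested genes.

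DDIT4, an inhibitor of the kinase mTORC1, had 913, 884 and 1201 at 0 h and 1760.4, 1777 and 1422 at 24 h, a rise of 0.88 ± 0.13 (adjusted p = 0.0011). ID1, a target of BMP receptors that blocks basic helix-loop-helix factors, had 1019, 1032 and 1053 at 0 h and 1496, 1969.7 and 1509 at 24 h. The rise of ID1 was 0.82 ± 0.10 (adjusted p = 0.00051), and with DDIT4 it kept its call in every alternative. The antiproliferative protein TOB1 had 460.4, 472 and 467 at 0 h and 621, 708 and 655 at 24 h, a rise of 0.56 ± 0.10 that was not called under median scaling. The pseudoreceptor BAMBI (0.41 ± 0.11) and the activin antagonist follistatin (FST, 0.62 ± 0.17) also rose. BAMBI lost its call without any 1 of the 0 h arrays or 24 h array a or c (adjusted p up to 0.16) and FST lost its call without any 1 of the 0 h arrays or 24 h array a or c (adjusted p up to 0.18), and FST was not called on the mean of its probe sets. ID2 had 0.50 ± 0.18 (adjusted p = 0.13) and the inhibitory SMAD7 -0.31 ± 0.11 (adjusted p = 0.12). In all, 2 of 25 tested genes of the FOXO and quiescence list and 3 of 26 of the BMP and TGF-beta list rose, with 0 falls in either, against 1.73% and 1.89% of all tested genes, and medians of 0.15 and 0.076 (0.030 and -0.13 under median scaling). The means of DDIT4 were 999 at 0 h, 641, 750.5 and 1784 after 4 h, 12 h and 24 h with IL-13, and 1653 in the 24 h control, so the 4 h and 12 h groups were below the 0 h cells and the 24 h group above them.

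Calls among genes of the cell cycle stand beside 3.62% of all tested genes that were called. Of 51 tested genes of DNA replication 0 were called, with a median of -0.046 and 17 above zero. Of 57 mitotic genes 1, the condensin subunit SMC4, rose (0.57 ± 0.13), and it lost its call without any 1 of the 0 h arrays or 24 h array a or b (adjusted p up to 0.088) and was not called on the mean of its probe sets. The proliferation marker MKI67 had 0.30 ± 0.11 (adjusted p = 0.14), topoisomerase TOP2A 0.33 ± 0.10 (adjusted p = 0.083), securin (PTTG1) -0.40 ± 0.12 (adjusted p = 0.060) and CDK4 -0.26 ± 0.09 (adjusted p = 0.11). The other bright probe sets of MKI67 had -0.0035 ± 0.088, 0.028 ± 0.14 and 0.026 ± 0.15 (SE), and that of TOP2A 0.13 ± 0.15. The CDK inhibitor CDKN1B had 0.43 ± 0.15 (adjusted p = 0.12). One histone gene of 13 tested, H2BC12, rose by 0.48 ± 0.10 and lost its call without 0 h array a or b or 24 h array b (adjusted p up to 0.059), and 0 of 17 p53 targets were called.

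A few immediate-early, chemokine and survival genes fell. Besides CCN1, the AP-1 subunits FOSL1 (-0.67 ± 0.16) and FOSL2 (-0.80 ± 0.17) fell. In all, 3 of 24 tested immediate-early genes fell, against 1.89% of all tested genes, with a list median of 0.017 (-0.19 under median scaling). FOSL1 lost its call without any 1 of the 0 h arrays or 24 h array a or b (adjusted p up to 0.11) and FOSL2 lost its call without 0 h array c or 24 h array c (adjusted p up to 0.069), and FOSL2 was not called on the mean of its probe sets. The monocyte chemokine CCL2 had 165, 136 and 147 at 0 h and 69.1, 84.6 and 35.5 at 24 h, a difference of -1.19 ± 0.21 (adjusted p = 0.0047). BCL2A1, a BCL2 family survival gene under NF-kB, had 115, 113 and 104 at 0 h and 33.8, 63.8 and 39.2 at 24 h. BCL2A1 fell by 1.16 ± 0.18 (adjusted p = 0.0021), and CCL2 and BCL2A1 kept their calls in all alternatives but the filter at the 75th percentile, which leaves both out. IRAK1, a kinase of interleukin 1 receptor signalling, fell by 0.45 ± 0.089 and lost its call without 24 h array c (adjusted p up to 0.056). The inhibitor NFKBIA (-0.31 ± 0.13, adjusted p = 0.20) and the subunits RELA (0.46 ± 0.13, adjusted p = 0.055) and RELB (-0.56 ± 0.17, adjusted p = 0.067) did not pass the test. The sign of RELA depended on the probe set, as its other bright set had -0.40 ± 0.20 (SE). The growth factor NRG1, a ligand of ERBB3 and ERBB4, fell by 0.46 ± 0.12 and lost its call whichever 1 array was left out (adjusted p up to 0.16). Its 3 other bright probe sets had differences of -0.13 ± 0.18, 0.0100 ± 0.18 and 0.57 ± 0.17 (SE), so 1 of them was higher at 24 h by more than the fall, and on the mean of its probe sets NRG1 had -0.062 and was not called (adjusted p = 0.77). With IL-13 at 24 h the means of CCL2 and BCL2A1 were 118 and 79.98, above the 63.1 and 45.6 of the untreated cells (0.90 ± 0.21, adjusted p = 0.015, and 0.79 ± 0.18, adjusted p = 0.015). CCL2 and BCL2A1 were named for being low in the same 24 h control arrays, so these p-values are not independent of that choice.

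In glycolysis and hypoxia 1 of 32 tested genes rose and 1 fell. In the ATF4 and unfolded protein list 2 of 31 rose and 2 fell. Of all tested genes 1.73% rose and 1.89% fell. Platelet-type phosphofructokinase (PFKP) had 1446, 1630.4 and 1494 at 0 h and 1033, 1095 and 974 at 24 h, a difference of -0.44 ± 0.081 that kept its call in every alternative. The carbonic anhydrase CA12, often used as a hypoxia marker, rose by 0.46 ± 0.11 and lost its call without 0 h array a or b or 24 h array a or c (adjusted p up to 0.13), while lactate dehydrogenase A (LDHA) had -0.077 ± 0.056 (adjusted p = 0.48) and HIF1A 0.43 ± 0.12 (adjusted p = 0.057). The desaturase SCD5 had the largest rise of all, 1.45 ± 0.36, with 188, 266 and 162 at 0 h and 551, 421 and 758 at 24 h. Its arrays spread widely at 24 h, and it lost its call without any 1 of the 0 h arrays or 24 h array a or c (adjusted p up to 0.13). Fatty acid synthase (FASN, -0.42 ± 0.15) and INSIG1 (-0.48 ± 0.15), both under SREBP, were not called (adjusted p = 0.12 and 0.076). ATF6, a membrane-bound sensor of unfolded protein, fell by 1.01 ± 0.27 and the chaperone calreticulin (CALR) fell by 0.80 ± 0.21. The probe set used for CALR had 138, 96.1 and 142 at 0 h and 76.3, 85.97 and 53.1 at 24 h, its 2 other bright probe sets had differences of 0.019 ± 0.081 and -0.081 ± 0.078 (SE), and on the mean of its probe sets CALR had -0.29 and was not called (adjusted p = 0.11). ATF6 lost its call whichever 1 array was left out (adjusted p up to 0.15) and CALR lost its call without any 1 of the 0 h arrays or 24 h array a or c (adjusted p up to 0.16), and ATF6 was not called on the mean of its probe sets. HSPA5, the main chaperone of the compartment, had 0.24 ± 0.10 (adjusted p = 0.19) and DDIT3 0.33 ± 0.16 (adjusted p = 0.25).

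Calls in the large housekeeping machineries and in the other lists below stand against 1.73% of all tested genes that rose and 1.89% that fell. The proteasome list had a median of -0.16 with 2 falls of 35, PSMB7 (-0.36 ± 0.075) and PSMD8 (-0.34 ± 0.082). Ribosome biogenesis also had a median of -0.16 with 1 fall of 35, and the heat shock list -0.14 with 0 calls of 30. The respiratory chain had -0.060 with 1 fall of 59, ribosomal proteins -0.015 with 1 rise and 1 fall of 52, and splicing factors 0.014 (-0.22 under median scaling) with 0 calls of 49. PSMB7 lost its call without 0 h array b or 24 h array a (adjusted p up to 0.053) and PSMD8 lost its call without any 1 of the 0 h arrays or 24 h array a or c (adjusted p up to 0.10). In the other lists with calls, the proteasome subunit PSMB9, induced by interferon, fell by 0.44 ± 0.10 as 1 of 23 interferon and antigen presentation genes. The autophagy protein GABARAP (-0.31 ± 0.082) and the cholesterol carrier NPC2 (-0.39 ± 0.10) fell among 42 lysosome and autophagy genes. The glucocorticoid receptor NR3C1 rose (0.35 ± 0.089) among 14 genes of its list, and JAK1, a kinase of the IL-13 receptor, fell (-0.32 ± 0.083) among 11 IL-13 targets and mucins. PSMB9 lost its call without any 1 of the 0 h arrays or 24 h array a or c (adjusted p up to 0.13), GABARAP lost its call without 0 h array a or c or any 1 of the 24 h arrays (adjusted p up to 0.17) and NPC2 lost its call without any 1 of the 0 h arrays or 24 h array a or c (adjusted p up to 0.15). NR3C1 and JAK1 lost their calls whichever 1 array was left out. NR3C1 was also called under none of the 3 other scalings, and over all alternatives its difference was as low as 0.10. Of the 8 circadian genes 0 were called. Counted by list, there were 2 rises and 2 falls of 31 genes of the ATF4 and unfolded protein list, 1 and 1 of 32 for glycolysis and hypoxia, 1 and 0 of 35 for lipid synthesis and 1 and 0 of 37 for amino acid and one-carbon metabolism. There were 0 and 2 of 22 for chemokines and NF-kB, 0 and 1 of 20 for apoptosis and 0 and 1 of 21 for growth factors. All 32 list medians were lower under median scaling, which moved the median of all genes too.

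**Figure D4:**
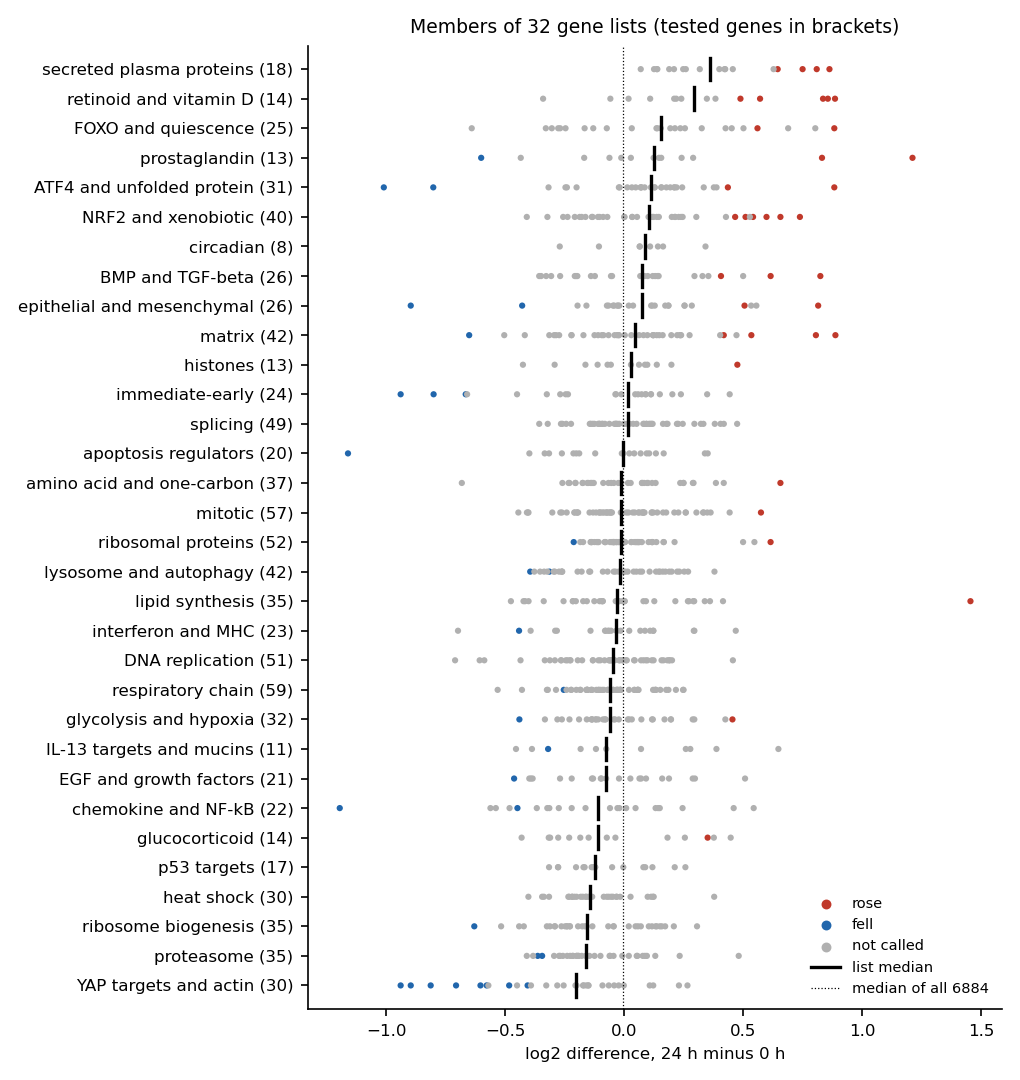
Log2 differences between untreated cells at 24 h and 0 h for the tested members of 32 gene lists, with the number of tested genes in brackets, ordered by list median (black bars). Red members rose, blue fell and grey did not pass the test; plasma proteins (median 0.36) and retinoid and vitamin D genes (0.29) lie at the upper end and YAP targets and actin genes (-0.20) at the lower end, and the dotted line is the median of all 6884 genes (-0.0030).

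Several of the largest changes belong to no list. USF2, a helix-loop-helix transcription factor, had 292, 234 and 350.3 at 0 h and 93.1, 75.8 and 96.96 at 24 h, the largest fall (-1.61 ± 0.18, adjusted p = 0.00024), and LRFN4, a synaptic adhesion molecule, 121, 84.7 and 119 at 0 h and 26.8, 35.7 and 22.5 at 24 h (-1.54 ± 0.19). USF2 kept its call in every alternative and LRFN4 in all but the filter at the 75th percentile, which leaves it out. All 3 bright probe sets of USF2 were lower, with differences of -1.61 to -0.68, but each is an _x_at set that can read other genes. Both genes were higher with IL-13 at 24 h than in the 24 h control, at means of 183 and 72.5 (adjusted p = 0.0024 and 0.0026). They were named for being low in the same 24 h control arrays, so these p-values are not independent of that choice. ENG, a coreceptor for TGF-beta, fell by 0.94 ± 0.25 and ANTXR1, a receptor for collagen and anthrax toxin, fell by 0.83 ± 0.19. ENG lost its call without any 1 of the 0 h arrays or 24 h array a or c (adjusted p up to 0.15) and ANTXR1 lost its call without 0 h array b or c or 24 h array b or c (adjusted p up to 0.11). Among rises, the transcription factor ZBTB20 had 219, 179 and 170.3 at 0 h and 389.9, 354 and 371 at 24 h, the microtubule-binding protein TACC2 255, 270.1 and 294 at 0 h and 424, 462 and 501 at 24 h and HAUS2, a subunit of augmin, 176, 165 and 136 at 0 h and 292, 299.97 and 268 at 24 h. In these 3 genes the lowest 24 h array was above the highest 0 h array, and their calls held in every alternative. HAUS2 was read by 1 probe set, also of the _x_at kind. ANXA13, an annexin of epithelial membranes, rose by 0.79 ± 0.13, with 52.3, 60.8 and 52.7 at 0 h and 129, 113 and 127 at 24 h. It was at 55.3 at 0 h, 82.8, 108 and 162 after 4 h, 12 h and 24 h with IL-13, and 123 in the 24 h control. The chloride cotransporter SLC12A2 rose by 0.79 ± 0.16 and lost its call without 0 h array b or c or 24 h array c (adjusted p up to 0.075), and the iodide transporter SLC5A5 rose by 0.82 ± 0.19 and lost its call without 0 h array a or 24 h array b or c (adjusted p up to 0.11). ZFP36L2, which binds AU-rich messages for decay, rose by 0.76 ± 0.12, but with the mean of its probe sets it was not called (adjusted p = 0.23). GOLGA8N, of a family of near-identical copies, rests on an _x_at probe set that can read its relatives, so its rise of 0.80 ± 0.19 cannot be given to 1 gene.

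The genes called can be set out by the length of their genes. The median genomic span (GRCh38.p14) was 56.6 kb for the genes that rose, 23.5 kb for those that fell and 30.8 kb for all tested. Among the 1721 genes with the longest span, 50 rose and 24 fell, and among the 1721 with the shortest, 24 rose and 47 fell. The median difference of those sets was 0.046 and -0.032. Of the genes between, 21 rose and 30 fell among the 1721 of shorter span. Among the 1720 of longer span, 24 rose and 29 fell. Of all tested genes 1.73% rose and 1.89% fell. The count of rises thus stood out only in the longest set, and that of falls only in the shortest. The promoter window had a median of 63.8% G and C for genes that rose, 68.3% for those that fell and 65.3% for all tested. The beta-actin 3'/5' ratio and the array medians moved with the same contrast, and their part in this pattern was not tested.

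**Figure D5:**
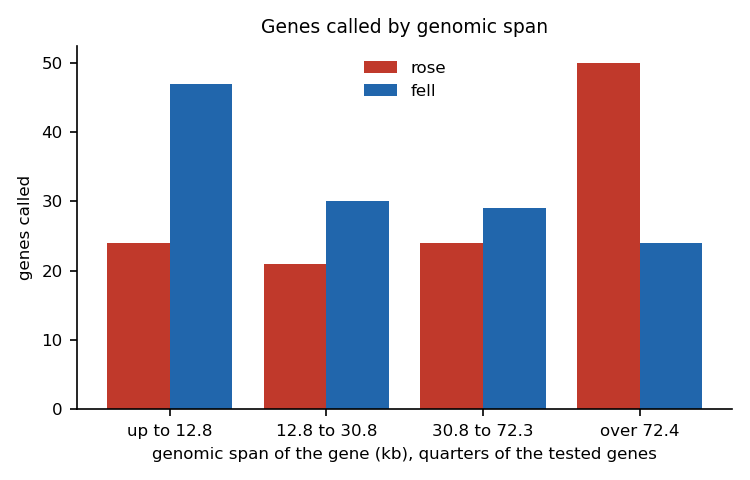
Number of genes that rose (red) and fell (blue) between 0 h and 24 h among the tested genes, split by genomic span into 4 sets of 1720 or 1721 genes. Falls outnumber rises, 47 to 24, in the set with the shortest span, and rises outnumber falls, 50 to 24, in the set with the longest. In the sets between, 21 genes rose and 30 fell at shorter span, and 24 rose and 29 fell at longer span.

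Promoters were also searched over all called genes. Of the 119 genes that rose 98 had an entry, and 10 of these (10.2%) held the cyclic AMP response element TGACGTCA in the 250 bases before the start, against 3.33% of the promoters of tested genes, 3 of 105 (2.86%) of genes that fell and 1.77% of all promoters. FN1 and HAUS2 are printed as the 2 such genes with the largest rises, with the element in capitals.
FN1, chr2:215436069-215436318, minus strand: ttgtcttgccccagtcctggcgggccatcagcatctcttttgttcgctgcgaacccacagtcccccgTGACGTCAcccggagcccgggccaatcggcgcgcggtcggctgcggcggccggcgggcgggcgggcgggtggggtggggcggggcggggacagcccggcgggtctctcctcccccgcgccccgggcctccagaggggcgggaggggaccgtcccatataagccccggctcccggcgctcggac
HAUS2, chr15:42548588-42548837, plus strand: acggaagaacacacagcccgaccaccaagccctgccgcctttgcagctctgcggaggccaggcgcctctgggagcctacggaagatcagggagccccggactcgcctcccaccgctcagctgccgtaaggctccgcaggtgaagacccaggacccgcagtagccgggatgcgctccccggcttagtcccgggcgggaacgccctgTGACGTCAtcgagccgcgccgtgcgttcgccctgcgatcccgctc
The element begins 183 bases before the start in FN1 and 45 bases before it in HAUS2. The other genes that rose and hold it, named for that reason, were LPP, HAUS5, N4BP1, AHI1, CLCN3, H2BC12, CHMP1B and CREB3L2. The TATA box TATAAA was in 11.2% of promoters of genes that rose, 4.76% of those that fell and 5.68% of those tested, and the E-box CACGTG in 5.10%, 4.76% and 9.31%. Both strands were searched for 9 motifs in all, chosen with the results known, and sites of different motifs may overlap. The others were the CArG box (1.02%, 3.81% and 1.11%), the TEAD motif CATTCC (11.2%, 8.57% and 9.23%), the AP-1 motif TGANTCA (1.02%, 3.81% and 3.74%), the NF-kB motif (8.16%, 11.4% and 11.9%), the HNF1 core (6.12%, 2.86% and 3.46%) and the antioxidant response core (11.2%, 9.52% and 12.8%), each among genes that rose, fell and were tested. None of these shares was tested.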

How the data were processed

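The study hybridized A549 RNA to 15 arrays in 5 groups of 3, and the 6 untreated control arrays are compared here. The deposited values are signal intensity per probe set on a linear scale, 22283 per array with 0 missing; the authors' method is not stated in the labels. Arrays were quantile normalized, 20 was added and log2 taken, which understates changes of dim genes. Each gene was taken from its brightest probe set with a single symbol in GEO's platform annotation, and sets of the _x_at kind, which read several genes, only where no other set was on the array. Genes past 6.33 in mean log2 signal (50th percentile), 6884 in all, were tested with limma 3.58.1 in R 4.3.3: a group-means model of all 15 arrays with 10 residual degrees of freedom, moderated with a variance trend, two-sided, Benjamini-Hochberg adjusted. Signals in the text are as deposited. The steps were tested on simulated data, where 37 of 66 changes of 1.5-fold, 79 of 82 of 2-fold and 52 of 52 of 3-fold were recovered. Of the 180 calls there, 12 (6.67%) were false. A gene not called may thus still have changed by about 1.5-fold. Promoters and gene spans are RefSeq's (GRCh38.p14). Alternatives were 3 other scalings, pseudocounts of 1 and 62, no filter and a 75th percentile filter, other handling of probe sets, only the 2 groups, no trend, array weights, a block by replicate letter, and the omission of each array in turn.

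The comparison, the gene lists and the naming rule were chosen with earlier results of these data known. The naming rule took the 25 largest rises and falls among called genes whose groups do not overlap, called members of the 32 lists, and the uncalled member with the smallest p in each list with a few textbook members. Not all of these are described above. Left out, among others, are MEFV (1.06) and MPPE1 (-1.21), each on an _x_at probe set. Called list members left out are SEL1L, ATP5PD, RPL27A, RPS10 and EXOSC2. YAP1, WWTR1, TEAD1, TEAD4, PFN1, CFL1, ACTN1 and the genes named for a promoter element were chosen after their values were seen. Precision is limited by 3 arrays per group.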

Additional observations from a re-analysis of the deposited data

How the results depend on the processing

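The count of genes called, 249, was 345 (142 higher, 203 lower) with the deposited scaling, 877 with median scaling, 378 with tested-gene median scaling, 237 and 259 with pseudocounts of 1 and 62, 154 with no filter (11963 genes tested), 256 with a 75th percentile filter, 250 with the mean of probe sets, 479 with every probe set, 167 with only the 2 groups, 173 with no variance trend, 333 with array weights and 66 to 227 without 1 array. Between 0 h and 24 h arrays of the same replicate letter, deviations correlated at 0.027, -0.028 and -0.063. Between arrays of different letters they correlated at -0.066 to 0.089. These few values cannot decide whether the letters pair the arrays, and the labels do not say what the letters mean. With the replicate block 193 genes were called. With every probe set as its own test, 479 of 11107 were called in the main setting, 588 as deposited, 1360 with median scaling, 586 with tested-gene scaling, 293 with no filter, 341 with only the 2 groups, 360 with no trend, 377 with the replicate block and 196 to 428 without 1 array.

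The naming rule took 94 genes that were called, not all of them described above. Of these 94, 27 kept direction and call in every alternative in which they were tested (the 75th percentile filter leaves out dim ones) and 67 lost the call in 1 or more, 53 of them without array c at 24 h and 50 without array b at 0 h. Signs turned in these cases, and the cause was not tested: ACTB to 0.0065 as deposited; CD44 to -0.026, TGM2 to -0.013, HSPA5 to -0.067 and PTGS1 to -0.0074 under median scaling; CD44 to -0.014, TGM2 to -0.014, NQO1 to 0.034 and GALNT10, the one called gene among them, to -0.0053 with the mean of probe sets. PTGS1 ran from -0.14 to 0.23 without 1 array. Signal over background limits the dim genes: the pseudocount is at the 25.2 percentile of all values.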
